A study of Mus musculus with 10 samples.

Results

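The genes described here are 8 components and regulators of the complement system, C4a, C4b, C1qa, C1qb, C1qc, C3, C3ar1 and Serping1, measured in the subventricular zone (SVZ) of mice after stroke. They were chosen by gene name, as all probes that the platform's annotation gives to these symbols, at a time when the genotype differences of the C4a, C4b and C1qb probes in these mice were already known. The annotation gave 12 probes for 7 of the 8 genes, out of 34885 probes for 19057 named genes. C3 had no probe under its symbol in this annotation. Of the 12 probes, 11 for 6 genes passed the filter on dim probes (detection p-value under 0.05 in at least 4 of 9 mice), out of 20401 probes that did so. The C3ar1 probe was detected in 0 of 9 mice and was not tested.

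In the study, 4 mice that overexpressed Tlx were compared with 5 wild type mice. Tlx, a nuclear receptor and the product of Nr2e1, maintains neural stem cells. All 9 were BL6 mice 8 weeks old, and all, controls included, had an ischemic stroke on 1 side of the brain, in the "stratum" as the study's design text spells it. SVZ was cut out by laser microdissection and its RNA hybridised to Illumina bead arrays. The Tlx overexpressing mice are named 2995, 3155, 3157 and 3163 in the labels and the wild type mice c1, c2, 2989, 2996 and 3164, and c1 was run on 2 arrays. The labels give neither the construct or the cells in which Tlx was overexpressed, nor the side of the brain taken, nor the time since the stroke. Nr2e1 itself read, on the log2 scale, 5.43 ± 0.14 with Tlx overexpression (SD, n = 4) and 5.01 ± 0.19 without it (SD, n = 5), a difference that did not pass over all probes (limma adjusted p = 0.084). Its lowest Tlx overexpressing mouse (5.27) lay above its highest wild type mouse (5.19), as in 3.24% of all tested probes. Of 9 markers of SVZ neuroblasts and progenitors, 6 were tested, and all 6 had higher means in the Tlx overexpressing mice. Of all tested probes 50.9% did, and 1.13% of all named genes passed the threshold (limma adjusted p under 0.05) in either direction. Dcx, a marker of neuroblasts (0.59, SE 0.12, limma adjusted p = 0.038), and the growth factor receptor Egfr (0.73, SE 0.10, limma adjusted p = 0.007) rose past the threshold. The level of this list differed by 0.49 (SE 0.10), and its part in the complement values below was not tested.

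Complement is a cascade of plasma and locally made proteins that marks cells and debris for removal. In the classical pathway C1q, built from the chains encoded by C1qa, C1qb and C1qc, binds a target and switches on the proteases C1r and C1s, which cleave C4 and C2, and the resulting enzyme cleaves C3. The C1 inhibitor encoded by Serping1 blocks C1r and C1s, and C3ar1 encodes the receptor for the fragment C3a. In the brain, microglia are the main source of C1q, while C4 is made largely by astrocytes and other non-microglial cells, and C1q and C4 have known roles in the removal of synapses.

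RefSeq (assembly GRCm38.p6) places C1qb, C1qc and C1qa side by side on chromosome 4 with 0 genes between neighbours. C4b and C4a lie on chromosome 17 with 4 annotated genes between them, Stk19-ps1, Skiv2l-ps1, Tnxa and Cyp21a1. The same annotation classes C4b as protein-coding and C4a as a transcribed pseudogene, and lists C4b and Slp among the synonyms of C4a. The C4 genes are nearly identical in sequence and the probe sequences were not used here, so a probe annotated to one may read the other, and C4a and C4b probes are described together. RefSeq promoters were given for 4 of the 8 genes, C1qb, C1qc, C3 and C3ar1. Those of C1qb and C1qc are shown because these neighbouring genes varied closely together between mice, as described below. Each runs from 250 bases before to 50 bases after the gene's start, 5′ to 3′ along the minus strand of GRCm38.p6, at chr4:136886151-136886450 for C1qb and chr4:136892865-136893164 for C1qc. Capitals mark AAGTCA, the half-site described for Tlx:
C1qb: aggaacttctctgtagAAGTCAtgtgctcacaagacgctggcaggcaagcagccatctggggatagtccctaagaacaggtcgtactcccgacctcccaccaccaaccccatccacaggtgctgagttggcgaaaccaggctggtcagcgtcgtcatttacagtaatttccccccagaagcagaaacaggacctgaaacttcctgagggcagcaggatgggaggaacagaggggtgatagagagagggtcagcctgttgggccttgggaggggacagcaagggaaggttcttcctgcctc
C1qc: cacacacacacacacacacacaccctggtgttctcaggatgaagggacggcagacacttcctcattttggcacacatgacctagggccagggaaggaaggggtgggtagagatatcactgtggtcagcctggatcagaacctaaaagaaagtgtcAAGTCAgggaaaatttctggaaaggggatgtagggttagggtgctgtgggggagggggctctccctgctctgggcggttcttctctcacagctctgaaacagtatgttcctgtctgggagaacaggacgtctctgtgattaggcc
Counted from 1 at the 5′ end, the motif filled bases 17 to 22 of the C1qb window and bases 156 to 161 of the C1qc window, on the printed strand in both. It occurred on either strand in 15.1% of all 32851 RefSeq promoters of this length, and not in the windows of C3 or C3ar1. TTCNNNGAA, a site for STAT factors (8.30% of promoters), and GAAANNGAA, a core of the interferon response element (8.56%), were searched on both strands and may share the letters GAA. Neither occurred in the 4 windows. A match of letters is a description of the sequence and says nothing on binding.

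The largest genotype differences among the 8 genes were those of C4 probes. Of the 6, 3 were detected in all 9 mice, and each of these was higher in every Tlx overexpressing mouse than in any wild type mouse. The mean of these 3 probes, called the C4 level here, was 8.96 ± 0.07 with Tlx overexpression (SD, n = 4) and 8.13 ± 0.25 without it (SD, n = 5), a difference of 0.82 (SE 0.13) on the log2 scale or 1.77-fold. Since the genes were chosen with this contrast known, all genotype differences of the 8 genes are given as a description, with their standard errors (SE) and without p-values. Where a probe's place past the threshold of the fit over all probes is named, it too describes the contrast used in the choice and supports nothing.

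The brightest C4a probe, ILMN_1215092, read 9.84, 10, 9.87 and 9.89 in Tlx overexpressing mice 2995, 3155, 3157 and 3163, and 8.73, 9.12, 9.09, 8.82 and 8.69 in wild type mice c1, c2, 2989, 2996 and 3164. The genotypes lay apart by 0.72 at their nearest, and the Tlx overexpressing mice were closely alike (SD 0.07) beside the wild type mice (SD 0.20). The means differed by 1.01 (SE 0.10), a fold of 2.02. On the authors' quantile-normalized linear scale the same probe read 978 ± 46.1 (SD, n = 4) against 502 ± 68.5 (SD, n = 5). Its 2 arrays of mouse c1 differed by 0.19.

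The brightest C4b probe, ILMN_3049559, read 9.34, 9.17, 9.41 and 9.30 in the Tlx overexpressing mice and 8.08, 8.81, 8.69, 8.55 and 8.34 in the wild type mice, in the same order. Again no values overlapped, with c1 the lowest of all mice and c2 the highest of the wild type. The difference was 0.81 (SE 0.13), 1.75-fold, and the 2 arrays of c1 read 8.08 and 8.08. The second C4a probe, ILMN_2646052, read 7.76, 7.39, 7.62 and 7.88 in the Tlx overexpressing mice and 6.78, 7.16, 7.38, 7.11 and 6.63 in wild type. Here mouse 3155 stood above wild type mouse 2989 by only 0.0034, and the difference of means was 0.65 (SE 0.15).

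The other 3 C4 probes were dim. C4b probe ILMN_2632567 was detected in all 4 Tlx overexpressing mice, each with a detection p of 0 (no negative control as bright), and in 3 of 5 wild type mice, with p of 0.293 in 2996 and 0.163 in 3164. It read 5.07, 5.23, 5.44 and 5.29 against 4.66, 4.64, 4.49, 4.27 and 4.32, a difference of 0.78 (SE 0.11) that was 0.359 without background correction. C4b probe ILMN_2632563 read 4.31, 4.89, 5.05 and 4.88 against 4.50, 4.71, 4.49, 4.27 and 4.57, so that mouse 2995, undetected with p of 0.183, fell among the wild type values. C4a probe ILMN_2911128 was detected in 1 of 4 Tlx overexpressing and 4 of 5 wild type mice, with means of 4.39 and 4.51, and was the only probe of the 11 with a lower mean in the Tlx overexpressing mice (-0.11, SE 0.08). Probes under the same C4 symbols thus ranged from -0.11 to 1.01.

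**Figure D1:**
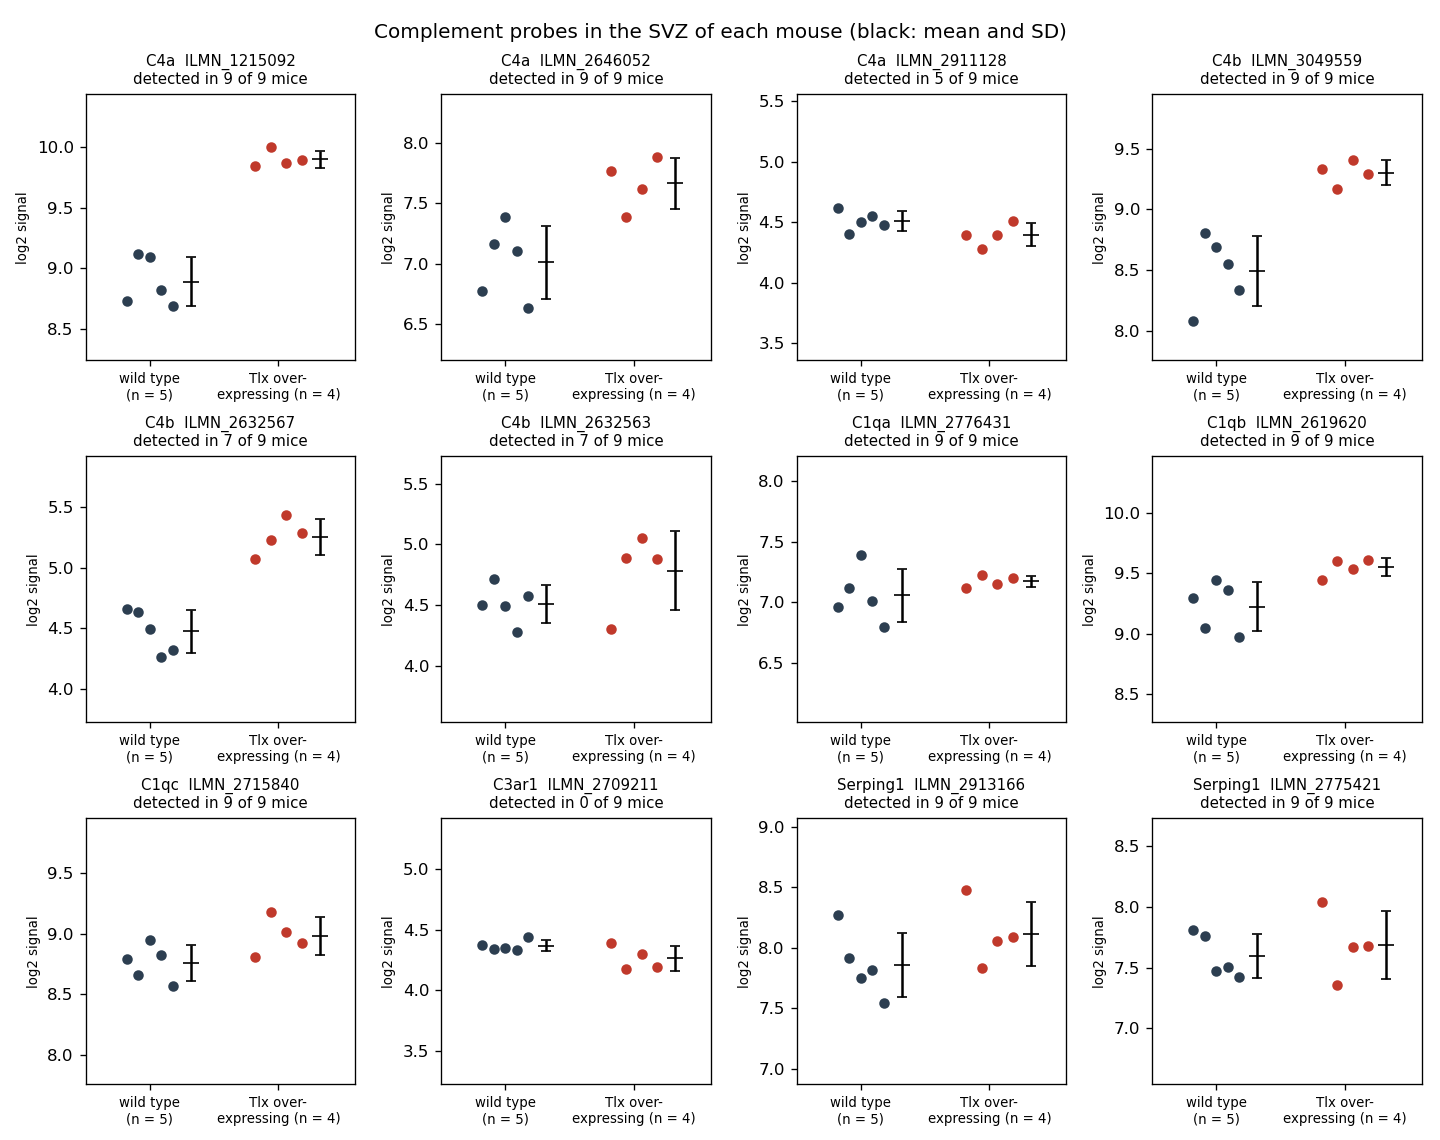
Log2 signal (y axis, each panel spanning the same log2 range) of the 12 complement probes in the 5 wild type mice (dark points, in the order c1, c2, 2989, 2996, 3164) and the 4 Tlx overexpressing mice (red points, in the order 2995, 3155, 3157, 3163), with the mean and SD in black. The genotypes do not overlap for C4a ILMN_1215092, where the nearest mice lie 0.72 apart, and they overlap for both Serping1 probes.

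The C1q chains, which form the recognition unit of the classical pathway, differed less. The mean of their 3 probes, each detected in all 9 mice, was 8.57 ± 0.09 with Tlx overexpression (SD, n = 4) and 8.35 ± 0.18 without it (SD, n = 5), a difference of 0.22 (SE 0.10) or 1.17-fold. Wild type mouse 2989 (8.59) lay above 3 of the 4 Tlx overexpressing mice.

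C1qb, the B chain, read 9.45, 9.60, 9.54 and 9.61 in the Tlx overexpressing mice and 9.29, 9.05, 9.44, 9.36 and 8.97 in wild type. Its genotypes did not overlap, but mice 2995 and 2989 were only 0.0039 apart, and the difference was 0.32 (SE 0.10). C1qc, the C chain, read 8.80, 9.18, 9.01 and 8.92 against 8.79, 8.65, 8.94, 8.82 and 8.57, with a difference of 0.22 (SE 0.10) and overlapping groups. C1qa, the A chain, read 7.12, 7.22, 7.15 and 7.20 against 6.96, 7.12, 7.39, 7.01 and 6.79, with a difference of 0.12 (SE 0.11). Its 4 Tlx overexpressing mice lay within the wild type range, and its 2 arrays of c1 read 6.87 and 7.05, a gap of 0.18.

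Serping1, the inhibitor of C1r and C1s, had 2 probes that were detected in every mouse and overlapped between genotypes. ILMN_2913166 read 8.48, 7.83, 8.05 and 8.09 in the Tlx overexpressing mice and 8.27, 7.91, 7.75, 7.82 and 7.54 in wild type, a difference of 0.26 (SE 0.15). ILMN_2775421 read 8.04, 7.35, 7.67 and 7.68 against 7.81, 7.76, 7.47, 7.50 and 7.42, a difference of 0.09 (SE 0.13). Without mouse 2995 these differences were 0.135 and -0.0267, so that the second turned its direction, and without mouse 3155 they were 0.349 and 0.203. Without wild type mouse c1 the second was 0.147, and without 2989 or 3164 it was 0.061 and 0.0496. In both probes, mouse 2995 was the highest of all 9, and mouse c1 the highest of the wild type. The 2 arrays of c1 differed by 0.0511 and 0.0134, and the pooled SDs between mice within genotypes were 0.27 and 0.23.

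C3ar1, the receptor for C3a, was not detectable on this array. Its detection p ran from 0.0566 in wild type mouse 3164 to 0.658 in Tlx overexpressing mouse 3155, and its log2 signals of 4.18 to 4.44 were not well above background in any mouse. No fold is given for it, and its level in this tissue was not measured.

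Of the 11 complement probes tested, 3 passed the threshold of the fit over all probes (limma, adjusted p under 0.05), all of them C4 probes and all higher in the Tlx overexpressing mice: ILMN_1215092, ILMN_3049559 and ILMN_2632567. Over all 20401 probes the share called higher was 0.539%. The genotypes lay fully apart, with the Tlx overexpressing mice higher, in 5 of the 11, against 3.24% of all probes. C4b ILMN_3049559 did not pass without mouse 3157 or without mouse 3163. The median difference of the 11 was 0.271, and that of all probes 0.00376. These calls use the contrast with which the genes were chosen, so nothing is read from the counts.

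**Figure D2:**
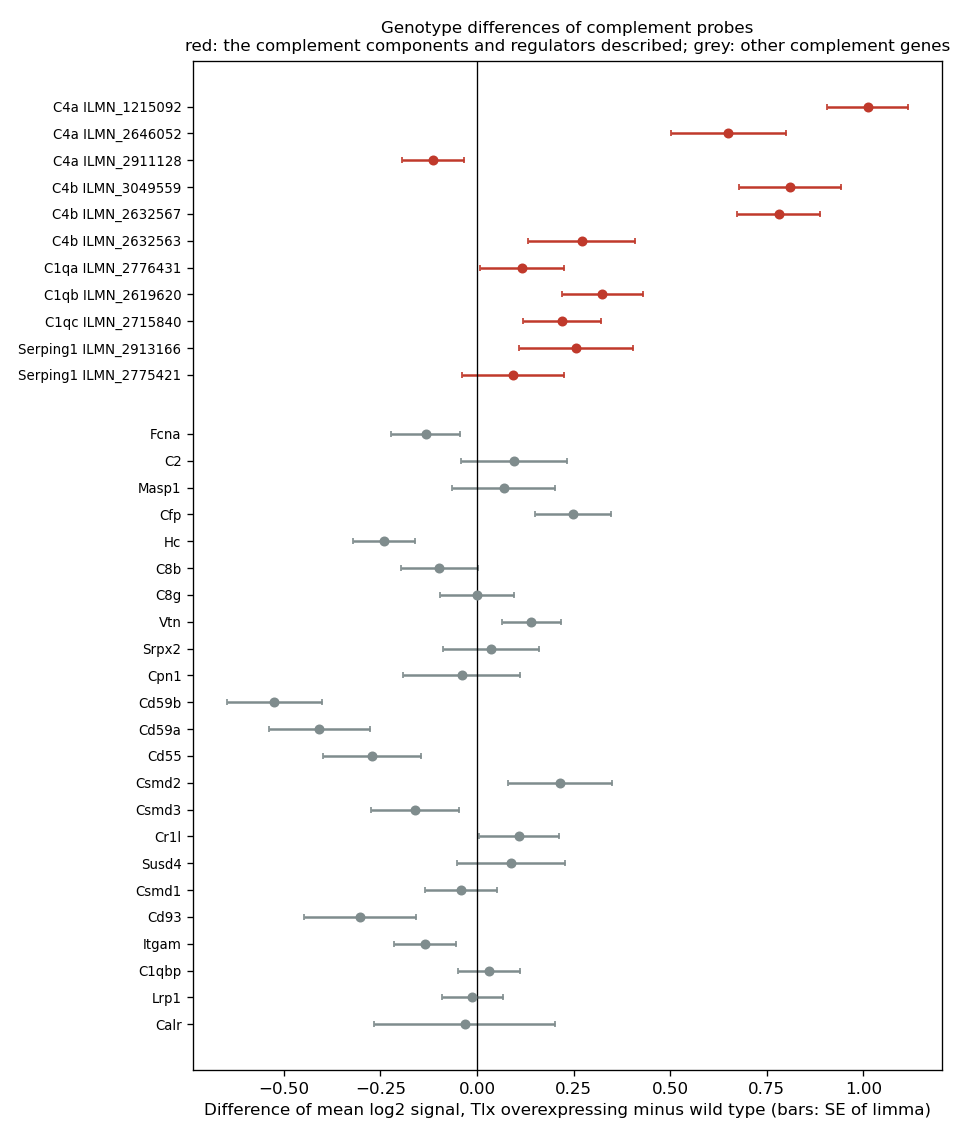
Difference of mean log2 signal, Tlx overexpressing minus wild type (x axis, bars for the SE of limma), for the 11 tested probes of the described genes (red) and for the brightest probe of each of 23 other complement genes (grey). C4a ILMN_1215092 stands furthest to the right at 1.01, and Cd59b furthest to the left at -0.52.

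The rest of the complement system was followed with a list of 55 genes. The brightest probes of 23 passed the filter, and 0 of the 23 passed the threshold (limma adjusted p under 0.05) in either direction, where 1.13% of all 11376 named genes did. At an unadjusted p under 0.05, 1 was higher and 3 were lower, while 18.2% of all named genes were past it in either direction, a share close to that of the list. The median difference of the 23 was -0.0321, beside a median of 0.00112 over all named genes. Of the 23, 9 had positive differences, as did 50.9% of all tested probes. Only the brightest probe per gene was counted, and for Cd93, Cr1l, Masp1 and Cpn1 the dimmer probes had adjusted p of 0.51 to 0.94.

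Among initiators, 3 of 14 were measured: C2, the partner of C4 in the C3-cleaving enzyme (0.10, SE 0.14, adjusted p = 0.76), the lectin pathway protease Masp1 (0.07, adjusted p = 0.83) and the ficolin Fcna (-0.13, adjusted p = 0.46). The genes of the C1 proteases, C1ra, C1rb, C1s1 and C1s2, were not tested. In the alternative pathway Cfp, which encodes the stabiliser properdin, read 7.25, 7.36, 7.31 and 7.48 in the Tlx overexpressing mice and 6.94, 7.35, 7.03, 7.20 and 6.99 in wild type. Mouse c2 fell within the Tlx overexpressing values, and the difference of 0.25 (SE 0.10) did not pass (adjusted p = 0.21). In the terminal pathway Hc, the gene of C5, had a difference of -0.24 (SE 0.08, adjusted p = 0.14), C8b of -0.10 and C8g of -3.0e-04.

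The membrane regulators Cd59a and Cd59b, which block the membrane attack complex, had the most negative differences of the list. Cd59b read 7.29, 6.80, 7.01 and 7.10 in the Tlx overexpressing mice and 7.80, 7.65, 7.50, 7.67 and 7.25 in wild type, a difference of -0.52 (SE 0.12) with an adjusted p of 0.062. Mice 2995 and 3164 crossed by a small margin, and the gene passed without Tlx overexpressing mouse 2995 or wild type mouse 3164. Cd59a read 11.40, 10.73, 10.88 and 10.97 against 11.60, 11.50, 11.17, 11.33 and 11.42 (-0.41, SE 0.13, adjusted p = 0.13), and passed without mouse 2995. Both had their lowest value in mouse 3155, which also had the lowest level of the choroid plexus markers described below (-1.06), whose part in these values was not tested. Cd55, which breaks up the C3-cleaving enzyme, had a difference of -0.27 (adjusted p = 0.29), and Csmd2, of a family of complement inhibitors, of 0.21 (adjusted p = 0.43).

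The soluble regulator vitronectin, Vtn, differed by 0.14 (SE 0.08, adjusted p = 0.36), and the C1q-binding protein Srpx2 by 0.04 (adjusted p = 0.91). Among receptors and binders, Cd93 had a difference of -0.30 (adjusted p = 0.30), and Itgam, a chain of complement receptor 3, of -0.13 (adjusted p = 0.40) with detection in 5 of 9 mice. The receptors C5ar1, C5ar2, Cr2, Itgax, Itgb2 and Vsig4 were not tested.

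Apart from the genotype, some pairs of complement probes varied together between mice and others did not. This was described by the correlation of deviations from the genotype means over 9 mice, which leaves 7 degrees of freedom, was computed for 55 pairs of probes, and is given without a p-value. The points share their arrays and their normalization, and a pair of probes of 1 gene also shares its transcript. The 2 Serping1 probes correlated most closely (Pearson's r = 0.92, Spearman's rho = 0.95, and r = 0.87 without the 2 mice furthest from the median). C1qb and C1qc correlated with r = 0.83 (rho = 0.78, and 0.74 without the 2 furthest mice). C4a ILMN_1215092 and C4b ILMN_3049559 correlated with r = 0.73 (rho = 0.70), which was 0.41 without the 2 furthest mice.

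C1qa varied more closely with C4a ILMN_1215092 than with the other C1q chains. With C1qb its r was 0.66, with rho of 0.32, and it became -0.35 without the 2 furthest mice, so this relation rests on those mice. With C1qc its r of 0.64 became 0.10. With C4a ILMN_1215092 it was 0.85 (rho = 0.97) and 0.90 without the 2 furthest mice, although C1qa showed little of that probe's genotype difference. Over all 9 mice, neither Serping1 probe had an r above 0.26 with any C4 probe that was detected in every mouse. Leaving out mice changed the relation of the Serping1 and C4 levels, as given below.

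**Figure D3:**
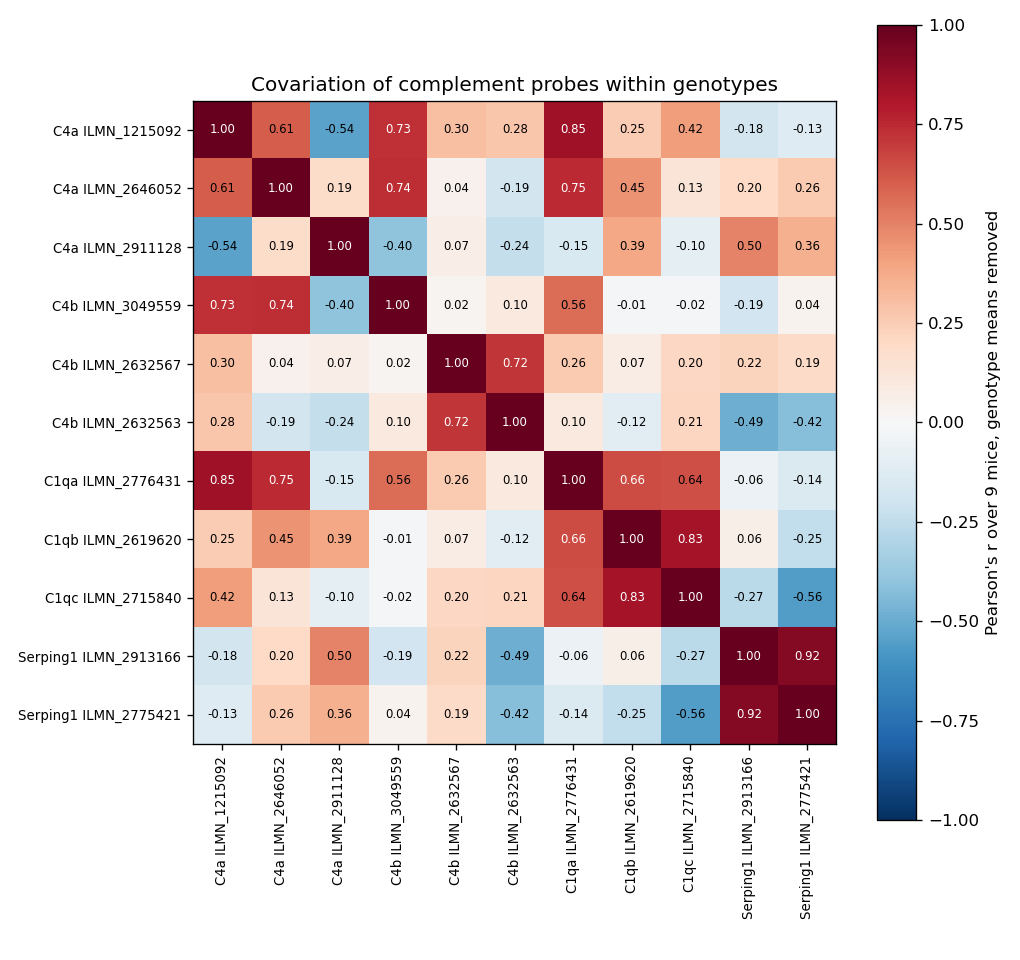
Pearson's r between the 11 tested complement probes over 9 mice after the genotype means were removed (colour from -1 to 1, values written in the cells). The 2 Serping1 probes (0.92), C1qb with C1qc (0.83) and C1qa with C4a ILMN_1215092 (0.85) have the highest values.

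Markers of other cells were set beside these levels, and 30 relations among levels and lists were computed over the 9 mice, again after removal of the genotype means and without p-values. In bulk tissue, more cells of a type and more RNA per cell cannot be told apart. The C1q level varied with the microglia list, which holds no complement gene, with r = 0.78 (rho = 0.72, and 0.60 without mice 2989 and 3164). Its r was 0.66 with the reactive astrocyte list (rho = 0.33) and 0.55 with the astrocyte list (rho = 0.30). Without those mice these were -0.53 and 0.38. The remaining lists, apart from choroid plexus below, had an r from -0.40 (meningeal and vascular fibroblasts) to 0.07 (neuroblasts and progenitors). Of 17 microglia markers 14 were tested. Of the 14, 11 had higher means in the Tlx overexpressing mice, as did 50.9% of all tested probes. Fcrls, an Fc receptor-like protein of microglia, was the 1 that passed (0.69, SE 0.13, limma adjusted p = 0.035), where 1.13% of all named genes did. The level of the list, centred on 0 over all mice, ran from 0.04 to 0.21 in the Tlx overexpressing mice and from -0.19 to 0.09 in wild type. With this level as a covariate the C1q difference was -0.0103 in place of 0.22. With the choroid plexus level instead it was 0.0649, and C1q had an r of -0.50 with that list (rho = -0.50, and -0.82 without mice 2989 and 3164). The microglia level itself differed between genotypes (0.20, SE 0.06), and the part of microglial RNA in the C1q difference was not tested further.

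The C4 level was set beside the lists in the same way. In Tlx overexpressing mouse 3155 the level of 13 interferon-stimulated genes was -0.13, close to the -0.13 of wild type mouse 2989, and its C4 level was 8.85 against 8.39 in 2989. The 8.85 of mouse 3155 was the lowest C4 level of the Tlx overexpressing mice, with 8.98 in 2995, 8.97 in 3157 and 9.02 in 3163. A pair of single mice is a description only. In its interferon level mouse 3155 was the exception of its group. In mice 2995, 3157 and 3163 the interferon level was 0.69, 0.46 and 0.43, above every wild type mouse. All 13 interferon genes had positive differences, as did 50.9% of all tested probes. The threshold was passed by 4 of them, and by 1.13% of all named genes in either direction. The list level ran from -0.13 to 0.69 in the Tlx overexpressing mice and from -0.46 to -0.13 in wild type. Within genotypes it had an r of 0.50 with the C4 level (rho = 0.52, and 0.54 without mice c1 and 3164), and as a covariate it left a C4 difference of 0.563. The probes differed in this: with that covariate C4a ILMN_1215092 had 0.987 in place of 1.01, C4b ILMN_3049559 0.541 in place of 0.81, and C4a ILMN_2646052 0.162 in place of 0.65. The microglia level had an r of 0.54 with C4, which was 0.21 without those mice, and as a covariate left 0.609. With the choroid plexus level as covariate, the C4 difference was 0.786. The level of SVZ neuroblast and progenitor markers had an r of 0.38 with C4 (rho = 0.20). The level of 10 astrocyte markers, without S100b, differed between genotypes by 6.0e-04 (SE 0.05), with ranges of -0.03 to 0.05 and -0.07 to 0.14. This mean joins markers of both directions, from -0.58 for Gjb6 to 0.41 for Acsbg1, with 5 of the 10 positive. The level of 9 reactive astrocyte markers differed by 0.07 (SE 0.05), with 6 positive, Gfap at -0.33 and Vim at 0.43. The r of the astrocyte and reactive astrocyte levels with the C4 level was 0.39 and 0.52 (rho = 0.22 and 0.18). The share of any of these cells in the C4 difference was not tested.

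Serping1 varied with the lists of several other cells. Its level had an r of 0.92 with 7 endothelial markers (rho = 0.83), 0.90 with 11 choroid plexus markers (rho = 0.90) and 0.87 with 8 markers of meningeal and vascular fibroblasts (rho = 0.70), and without mice 2995 and c1 these were 0.72, 0.74 and 0.55. With the infiltrating myeloid list, of which only S100a8 and Lyz2 were tested, its r was 0.85 (rho = 0.88), and 0.71 without those mice. That list ran from -0.18 to 0.60 in the Tlx overexpressing mice and from -0.50 to 0.76 in wild type. With the interferon-stimulated level the r of Serping1 was 0.69 (rho = 0.58), and 0.77 without mice 2995 and c1. Its r was negative with the astrocyte list (-0.57, rho = -0.75) and the microglia list (-0.52, rho = -0.48), and -0.43 and -0.33 without those mice. For the reactive astrocyte list the r was 0.33, and for neuroblasts and progenitors -0.19. With the C4 level the r of Serping1 was 0.03 (rho = 0.07) over all mice. That value was 0.72 without mice 2995 and c1 and 0.24 without mice c1 and 3164, so it depends on the mice kept. The choroid plexus list was lower in all 11 genes in the Tlx overexpressing mice, 2 of them past the threshold. Of all tested probes 50.9% were higher, and 1.13% of all named genes passed in either direction. The choroid plexus level ran from -1.06 in 3155 to 0.17 in 2995 against 0.08 to 0.67 in wild type. Kcnj13, Slc4a5 and Prlr of the choroid plexus list were not tested. The endothelial level ran from -0.20 to 0.09 against -0.03 to 0.23, and that of fibroblasts from -0.49 to 0.34 against 0.0037 to 0.37. Adding the choroid plexus level to the fit gave the Serping1 probes differences of 0.738 and 0.548 in place of 0.26 and 0.09, and adding the interferon-stimulated level gave -0.175 and -0.36. What these lists contribute to the Serping1 values was not tested further.

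**Figure D4:**
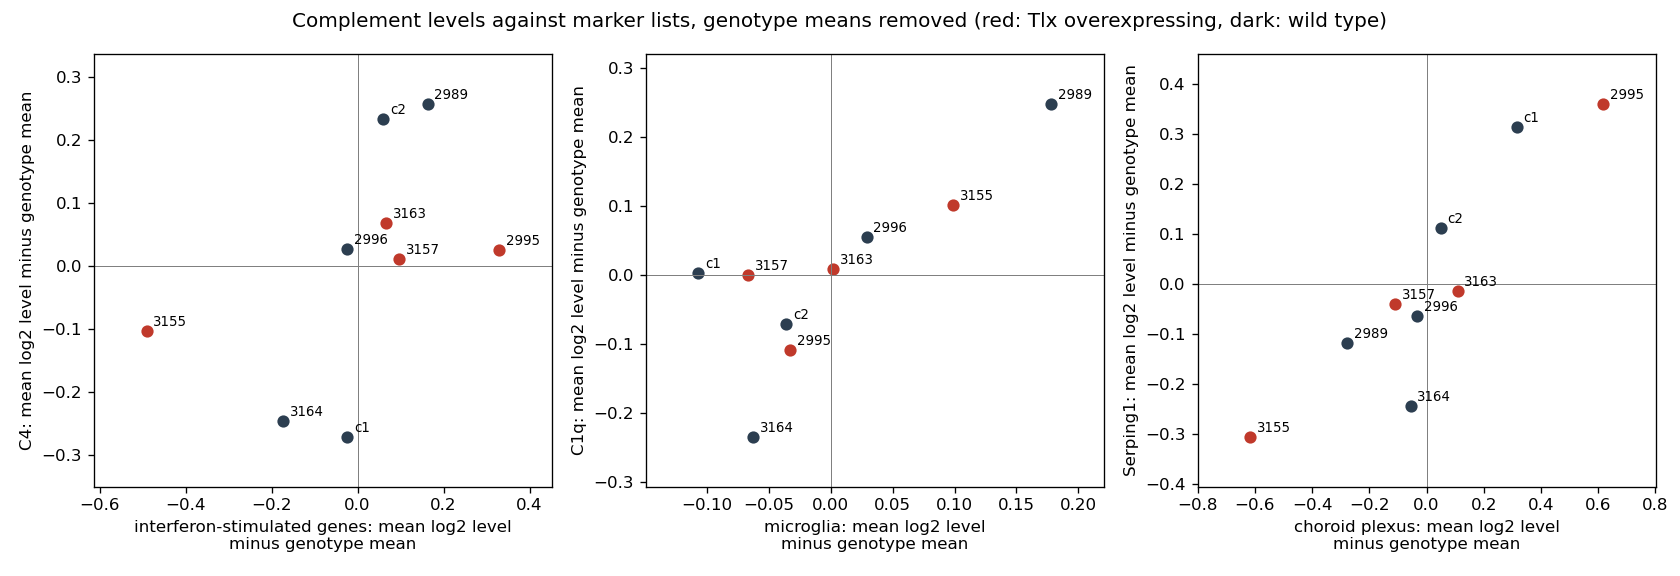
Mean log2 level minus the genotype mean of C4 against interferon-stimulated genes, C1q against microglia markers and Serping1 against choroid plexus markers, 1 point per mouse (red for Tlx overexpressing, dark for wild type, with the mouse's name). Pearson's r over the 9 mice is 0.50, 0.78 and 0.90.

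The mouse names fall into ranges, 2989 to 2996, 3155 to 3164, and c1 with c2, whose meaning the labels do not give. The C4 level differed by 0.71 among mice 2995, 2989 and 2996 and by 1.06 between 3155, 3157 and 3163 and the single wild type mouse 3164. The C1q level differed by -0.0398 in the first of these ranges and by 0.491 in the second, so its difference did not hold within both. Each of these values rests on a single mouse of a genotype, Tlx overexpressing 2995 in the first and wild type 3164 in the second. The C1q difference was 0.241 with the range as a block, in place of 0.22. The Serping1 level differed by 0.63 and 0.30, beside 0.17 (SE 0.16) over all mice. Its probes ILMN_2913166 and ILMN_2775421 had differences of 0.566 and 0.339 with the range as a block, in place of 0.26 and 0.09. With the range as a block, C4a ILMN_1215092 and C4b ILMN_2632567 kept their place past the threshold and C4b ILMN_3049559 did not.

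The genes whose pattern within genotypes was most like the C4 level, among 17559 named probes, were Tubg1 (r = 0.94), Igfbp5 (0.92), Slc11a1 (0.92), Iars (0.92) and Nek3 (0.91), each over 9 mice. Without mice c1 and 3164 their r was 0.80 to 0.89. For the C1q level they were Gltp (r = 0.99), Atg9a (0.98), Usp54 (0.96), Bin1 (0.96) and Gpr26 (0.96), and 0.89 to 0.96 without mice 2989 and 3164. None of these 10 is a complement gene, and their own genotype differences ran from -0.15 to 0.31. They were picked as the highest of 17559, so the size of r is set by that choice.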

How the data were processed

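Biotinylated cRNA from SVZ tissue was hybridised to Illumina mouse arrays of 45281 probes, 10 arrays for 9 mice, per the labels. The authors deposited 2 tables of probe intensity. The 1 called non-normalized held values already quantile-normalized (medians 40.69 to 40.71), while the other held signals before normalization between arrays (medians 36.8 to 43.2). Both tables ranked the probes of an array alike. For the authors' software and background treatment, nothing is given in the sources used here. Each normalized intensity had a deposited detection p-value beside it, per the file headers. Its steps of 1 over 936 were read as a rank among negative controls.

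The signals before normalization went through neqc of limma 3.58.1 (R 4.3.3), which applies normexp, an offset of 16, quantile normalization and log2. The arrays of c1 were averaged, and c1 counted as detected only if both arrays were. Of 45281 probes 20068 to 20590 were detected per array. The test was limma's lmFit and eBayes on 20401 probes with Benjamini-Hochberg adjustment, two-sided, at 0.05. Every adjusted p is from this fit, and the number of mice limits the precision of all values. The script was tested on simulated data.

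The platform's annotation named 34885 probes by 1 symbol, 18 by several and 10378 by none, and RefSeq matched 34807 by gene ID. The complement genes, the lists and the alternatives were chosen with earlier results of these data known. Genes of the wider list were named where past the threshold, or else the up to 4 per role with the smallest p. Those most alike are the 5 with the highest r for each level. Alternatives were other background corrections, offsets and filters, the authors' normalized values, single arrays of c1, array weights, number ranges, marker levels as covariates and leaving out each mouse. The covariate of interferon-stimulated genes and the fit without mice 3155 and c1 were added after seeing the data.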

Additional observations from a re-analysis of the deposited data

Results flagged for a closer look

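Within each genotype, the highest and lowest mouse of each complement probe was compared with the rest by the ratio of its gap to the range of the group. None of 24 groups (12 probes in 2 genotypes) passed the critical value of Dixon's test for its number of mice, at which chance alone marks about 1 in 20 groups.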

How the results depend on the processing

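Of the complement probes 3 passed the threshold, and 2 to 4 did on leaving out each mouse in turn. The number was 0 with the choroid plexus level and 0 with the microglia level as a covariate, where 1 and 9 of all probes passed and the C4 level difference was 0.786 and 0.609, and 1 with the interferon-stimulated level, which was C4a ILMN_1215092. That probe passed in 20 of 22 alternatives, C4b ILMN_2632567 in 18 and C4b ILMN_3049559 in 15. The C4 level difference was positive in 24 of 24 alternatives, with 1.06 within the range 3155 to 3164 and 0.563 with the interferon-stimulated level. The lowest C4 level with Tlx overexpression (8.85) lay above the highest of wild type (8.39). Leaving out mice or staying within a range therefore could not turn the sign. The genes were chosen with this contrast known, so nothing is read from the count. The C1q level difference was -0.0398 and 0.491 within the ranges 2989 to 2996 and 3155 to 3164, 0.0649 with the choroid plexus level and -0.0103 with the microglia level. On leaving out 1 mouse the C4 level difference was 0.756 to 0.888 and that of C1q 0.162 to 0.282.

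Of the wider complement genes 0 passed, against 0 to 2 on leaving out 1 mouse (Cd59a and Cd59b without 2995, Cd59b without 3164) and 1, Cd59b, with array weights. Over all probes 192 passed, with 754 without mouse 2995, 71 without 3155, 26 without 3157, 39 without 3163, 63 without c1, 84 without 2996 and 122 without 3164. The count was 609 with array weights, 51 with the number range as a block, 56 with no filter on dim probes, 122 with an offset of 50, 123 with the interferon-stimulated level and 31 without mice 3155 and c1. The cause of these changes was not tested. The differences of dim probes depend on the background correction: C4b ILMN_2632567 was 0.781, and 0.482 in the authors' normalized values.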
